A study of Mus musculus with 4 samples.

Results

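Sox7, Sox17 and Sox18, the 3 SoxF transcription factors, were followed together with the endothelial genes Egfl7, Esm1, Cldn5, Bcl6b, Sema3g and Gimap6 in sorted cells of the mouse cochlea. These 9 genes, of 23420 in the files, were chosen because they had been seen to rise in non-hair cells after gentamicin, so their levels in that contrast are described here without a test. All 9 had at least 100 reads over the 12 replicates and were among the 16088 genes tested. Cochleae came from Atoh1-GFP mice on the CD1 background at postnatal day 1, in which the Atoh1 enhancer drives GFP in hair cells, the sensory receptors of sound. Explants of every group were kept overnight in DMEM/F12 with N2 supplement and penicillin at low oxygen, and the treated groups then received 0.5 mM gentamicin, an aminoglycoside antibiotic that is toxic to hair cells, for 3 h, while controls did not. Sorting gave GFP-positive hair cells (HC) and GFP-negative non-hair cells (NHC), each with and without gentamicin, and poly(A) RNA-seq was run on 3 biological replicates of each of the 4 groups. The NHC fraction was everything without GFP: supporting cells together with cells of the surrounding tissue, vessels included, but without inner phalangeal cells, whose weak GFP was gated out.

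SoxF factors bind DNA through a high mobility group domain and act in endothelium, the inner lining of vessels, where they take part in vessel formation, arterial specification and lymphatic development. Several of their known partners and targets lie in the vascular endothelial growth factor (VEGF) and Notch pathways. In the cochlea, endothelial cells of the stria vascularis and the spiral ligament form the blood-labyrinth barrier, whose tight junctions hold claudin 5.

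Replicates held 22400662–28152252 reads on genes. The sort followed its labels, since Atoh1 had a mean normalized read number of 209 in control HC and 1.38 in control NHC, and the hair cell myosins Myo6 and Myo7a had 4369.7 and 201, and 1657 and 11.2. Endothelial markers were present in NHC and low in HC: the levels of 34 endothelial identity genes summed to 1088–1126 in control NHC replicates and to 212–252 in control HC replicates. In bulk samples of this kind, fewer cells of a type and less RNA per cell cannot be told apart. NHC control replicate 1 stood apart in its red blood cell genes, mainly hemoglobins, with a summed level of 64.0 against 4.32 and 7.79 in the other NHC controls and 3.24–4.14 after gentamicin.

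The bases upstream of annotated transcript starts are given for 4 of the 9 genes, because these genes moved together and the windows show the letters in front of their starts. RefSeq on GRCm38.p6 gave 7 such windows of 250 bases for 5 of the genes (Egfl7 with 3 starts, Gimap6, Esm1, Sema3g and Cldn5). Each is written 5′ to 3′ on the strand of its gene. Capitals mark GGAAGT or its reverse complement ACTTCC, letters that ETS factors are known to bind.
Egfl7, chr2:26580833-26581082, plus strand: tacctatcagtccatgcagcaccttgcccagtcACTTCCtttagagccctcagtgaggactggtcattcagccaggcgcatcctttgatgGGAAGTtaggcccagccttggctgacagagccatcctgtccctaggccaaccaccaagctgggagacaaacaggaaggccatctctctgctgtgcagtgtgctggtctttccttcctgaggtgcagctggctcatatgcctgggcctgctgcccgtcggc
Egfl7, chr2:26583615-26583864, plus strand: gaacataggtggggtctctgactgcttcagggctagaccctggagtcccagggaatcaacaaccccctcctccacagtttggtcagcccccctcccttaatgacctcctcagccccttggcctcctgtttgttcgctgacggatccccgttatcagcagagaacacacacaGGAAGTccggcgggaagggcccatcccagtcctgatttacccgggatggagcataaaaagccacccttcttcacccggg
Gimap6, chr6:48708245-48708494, minus strand: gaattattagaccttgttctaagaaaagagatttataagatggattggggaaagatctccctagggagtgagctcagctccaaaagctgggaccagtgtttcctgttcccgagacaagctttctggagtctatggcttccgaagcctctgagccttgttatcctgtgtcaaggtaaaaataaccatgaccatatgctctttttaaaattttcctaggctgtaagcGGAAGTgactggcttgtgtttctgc
Esm1, chr13:113209409-113209658, plus strand: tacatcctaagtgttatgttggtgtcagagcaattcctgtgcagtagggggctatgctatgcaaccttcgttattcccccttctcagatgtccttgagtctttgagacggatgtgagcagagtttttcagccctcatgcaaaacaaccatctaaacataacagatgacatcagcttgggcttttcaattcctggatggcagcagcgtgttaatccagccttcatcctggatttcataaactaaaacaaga
Cldn5, chr16:18776597-18776846, plus strand: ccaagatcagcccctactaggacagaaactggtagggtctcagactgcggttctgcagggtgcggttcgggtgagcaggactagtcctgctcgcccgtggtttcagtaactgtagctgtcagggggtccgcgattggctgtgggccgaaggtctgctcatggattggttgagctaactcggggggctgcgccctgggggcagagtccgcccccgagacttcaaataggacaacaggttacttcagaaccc

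The letters GGAAGT, sought on both strands, were in 3 of the 7 windows and in 19.7% of all 32851 RefSeq windows of this length. ACAAT, a core bound by SOX factors, was in 0 of the 7 windows and in 27.7% of all windows. ACAAAG, another sequence bound by SOX and TCF factors, was in 1 of the 7 windows and in 16.5% of all windows. That window, of Egfl7 at chr2:26586386-26586635, is not printed above, nor is the window of Sema3g. GTAAACA, bound by forkhead factors, was in 0 of the 7 windows and in 3.17% of all. These matches describe letters in the windows and are not binding sites.

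Among the SoxF genes, Sox7 and Sox18 showed the largest rises on the log2 scale of all 16088 genes in NHC after gentamicin, and Sox17 a smaller one. Sox7 lies on the plus strand of chr14:63943673-63950732 (mm10). Its normalized read numbers were 9.36, 14.7 and 14.7 in control NHC and 45.7, 36.7 and 64.6 after gentamicin. All treated replicates lay above all controls, and the means rose from 12.9 ± 3.08 to 49.0 ± 14.2 (SD, n = 3), or 4.03-fold with the offset of 1 in the files removed.

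Sox18, which acts in vessels and lymphatics, lies on the minus strand at chr2:181669836-181671640. It had 17.1, 17.9 and 19.0 in control NHC and 38.4, 64.0 and 55.9 after gentamicin, with means of 18.02 ± 0.961 and 52.8 ± 13.1 (SD, n = 3). The control replicates were close to each other and the treated replicates spread widely, with replicate 2 highest, whereas Sox7 was lowest in that same replicate.

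Sox17, which takes part in arterial specification, lies on the minus strand at chr1:4490931-4497354. Its values were 7.98, 8.68 and 10.96 in control NHC and 16.6, 11.1 and 18.7 after gentamicin. Treated replicate 2 lay just above the highest control, so the groups were separated by little, and the means differed 1.76-fold with the offset removed. Of the 9 genes Sox17 had the smallest difference on the log2 scale, 0.73 with an SE of 0.20, against 1.91 with an SE of 0.26 for Sox7 and 1.52 with an SE of 0.22 for Sox18. Without NHC control replicate 1 these differences were 0.63, 1.70 and 1.48. The span of Gm37587, on the opposite strand, holds 804 of the 4772 exon bases of Sox17. The library kit does not mark strand, so reads there cannot be assigned with certainty.

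Among the secreted products, Egfl7 encodes a protein of the endothelial matrix and Esm1 (endocan) a proteoglycan of endothelial tip cells. Egfl7 lies on the plus strand at chr2:26580014-26593120. It had 29.6, 35.2 and 41.1 in control NHC and 82.4, 92.4 and 100.0 after gentamicin. The gap between the groups was wide next to the spread within each, with means of 35.3 ± 5.74 and 91.6 ± 8.83 (SD, n = 3). The span of Agpat2, on the opposite strand, holds 64 exon bases of Egfl7, and the library kit does not mark strand. Agpat2 itself had 24.05–26.997 in control NHC and 25.8–28.4 after gentamicin. The span of Gm20532, on the same strand, holds 3014 of the 3581 exon bases of Egfl7, so reads there cannot be assigned with certainty.

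An intron of Egfl7 hosts the microRNA miR-126, known for its part in endothelial signalling, and the mature sequence is given because the host gene is among those that rose. Capitals mark its seed, bases 2 to 8, at chr2:26591402-26591423 on the plus strand (RefSeq, GRCm38.p6).
mmu-miR-126a-3p: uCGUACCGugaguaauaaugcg
Poly(A) libraries do not capture mature microRNAs, so its level was not measured here.

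Esm1 lies on the plus strand at chr13:113209659-113218098 and was the gene with the fewest reads. It had 2.41, 3.34 and 4.05 in control NHC and 7.03, 7.34 and 8.95 after gentamicin. All treated replicates exceeded all controls, with means of 3.27 ± 0.825 and 7.77 ± 1.03 (SD, n = 3), or 2.99-fold without the offset. All 2097 exon bases of Esm1 lie in the span of Gzmk, on the opposite strand, which had no reads in any NHC replicate.

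The remaining 4 genes encode a junction protein, a repressor, a guidance cue and a GTPase. Cldn5, the main claudin of endothelial tight junctions, is a single exon on the plus strand at chr16:18776847-18778262. It had 27.6, 29.6 and 37.7 in control NHC and 59.9, 56.3 and 93.7 after gentamicin, with treated replicate 3 well above the other two. Bcl6b, a zinc finger repressor on the minus strand at chr11:70224128-70229798, had 24.97, 30.6 and 34.1 in control NHC and 50.03, 56.2 and 75.8 after gentamicin. The means of these genes rose 2.25-fold and 2.07-fold without the offset, and the groups of neither overlapped.

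Sema3g, a secreted class 3 semaphorin on the plus strand at chr14:31217860-31230352, had 7.12, 10.7 and 12.3 in control NHC and 17.2, 23.1 and 27.6 after gentamicin. Its log2 difference was 1.18 with an SE of 0.30, the largest SE of the 9 in a fit that pools the spread of all 4 groups. Gimap6, a GTPase of the immunity-associated family on the minus strand at chr6:48701582-48708225, had 10.9, 12.1 and 12.2 in control NHC and 17.1, 19.4 and 24.3 after gentamicin. The control values were tight and the treated values more spread, and the means rose 1.799-fold without the offset.

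**Figure D1:**
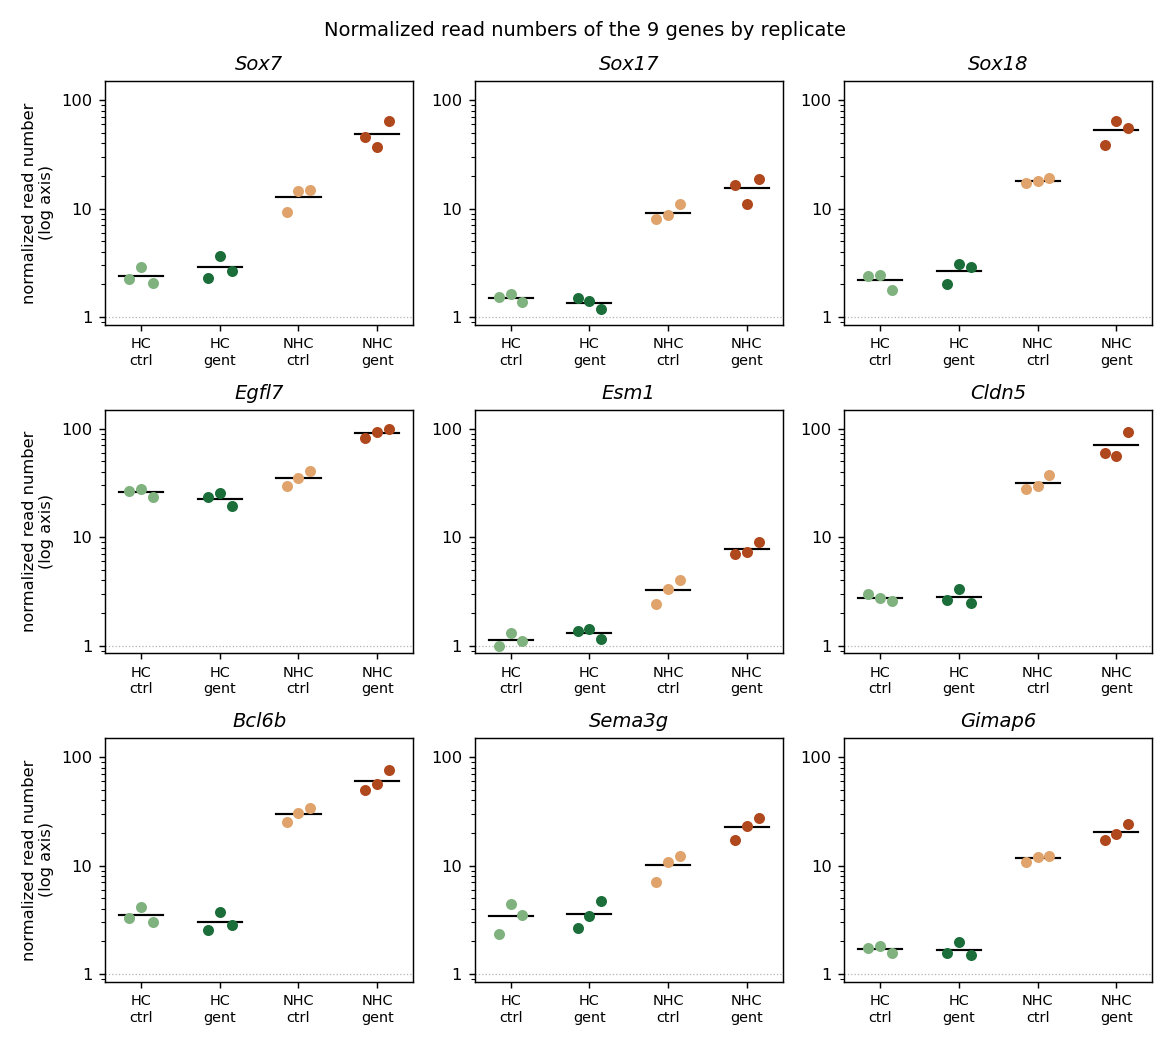
Normalized read number (log axis) of the 9 genes in each replicate of the 4 groups, HC and NHC with and without gentamicin, with the group mean as a line. In NHC the treated replicates lie above the controls for all 9 genes, from 36.7 to 64.6 against 9.36 to 14.7 for Sox7, and in HC the groups overlap for all 9.

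Treated and control NHC did not overlap for any of the 9 genes, where 10.1% of the 16088 genes were higher without overlap. All 9 met the criteria of an unadjusted limma p under 0.01 and a fold change above 1.2, which 3.18% of genes met in the higher direction, and 5 (Sox7, Sox18, Egfl7, Esm1 and Cldn5) had a Benjamini-Hochberg adjusted p under 0.05, which 0.236% of genes did. These counts follow from how the genes were chosen and are no test of them. Ordered from the largest rise downwards on the log2 scale, Sox7, Sox18 and Egfl7 ranked 1, 2 and 3 of all genes, Esm1 5, Sema3g 7, Cldn5 9, Bcl6b 12, Gimap6 46 and Sox17 74. Without NHC control replicate 1, and likewise without NHC gentamicin replicate 3, the genes that met the criteria numbered 7, with Sox17 and Sema3g outside.

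In HC, none of the 9 genes passed the test after the same exposure. Of the 9 genes 0 met the criteria in limma, against 27.5% of the 16088 genes in either direction, and 0 had an adjusted p under 0.05, against 33.1% of genes. The groups overlapped for every one of the 9, where 21.7% of genes were higher and 33.1% lower without overlap. Their median log2 difference was 0.008, where that of all genes was -0.086. The limits of what these replicates could show differed between genes, and the 95% intervals of limma give the sizes that remain possible.

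Sox7 had 2.23, 2.92 and 2.06 in control HC and 2.29, 3.69 and 2.64 after gentamicin, a log2 difference of 0.25 (95% interval -0.33 to 0.82, limma adjusted p = 0.502). Sox18 had 2.39, 2.45 and 1.78, and 2.03, 3.09 and 2.92 after gentamicin, a difference of 0.27 (-0.20 to 0.75, limma adjusted p = 0.365). Sox17 had 1.52, 1.64 and 1.37, and 1.49, 1.42 and 1.18 after gentamicin, a difference of -0.15 (-0.59 to 0.29, limma adjusted p = 0.596). All of these HC values lay below the lowest NHC value of the same gene, and close to the offset of 1.

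Egfl7 was the exception in level, with 26.4, 27.9 and 23.4 in control HC and 23.2, 25.6 and 19.2 after gentamicin. Its log2 difference of -0.20 had the narrowest interval of the 9 genes, -0.50 to 0.11 (limma adjusted p = 0.298). Esm1 rested on 0, 7 and 2 reads in control HC and 9, 10 and 4 after gentamicin. Its difference of 0.22 on the log2 scale (-0.20 to 0.63, limma adjusted p = 0.414) was thus measured at a level near that of no reads. With the offset removed its HC means differed 2.38-fold, and those of the other genes between 0.713-fold (Sox17) and 1.39-fold (Sox18). Over the alternatives run, the log2 difference of Esm1 in HC reached 0.98.

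Cldn5 had 3.00, 2.75 and 2.57 in control HC and 2.65, 3.30 and 2.46 after gentamicin, and differed by 0.01 (-0.43 to 0.45, limma adjusted p = 0.982). Bcl6b, Sema3g and Gimap6 differed by -0.20 (-0.64 to 0.24), 0.08 (-0.58 to 0.73) and -0.03 (-0.37 to 0.32), with limma adjusted p-values of 0.479, 0.875 and 0.920. On the log2(value + 1) scale the intervals of Sox7, Sox18 and Sema3g reached furthest up, to 0.82, 0.75 and 0.73. Rises of that size on this scale in HC were within the error of these replicates. No test of the difference between the HC and NHC responses of these genes is given, since the NHC contrast chose them.

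**Figure D2:**
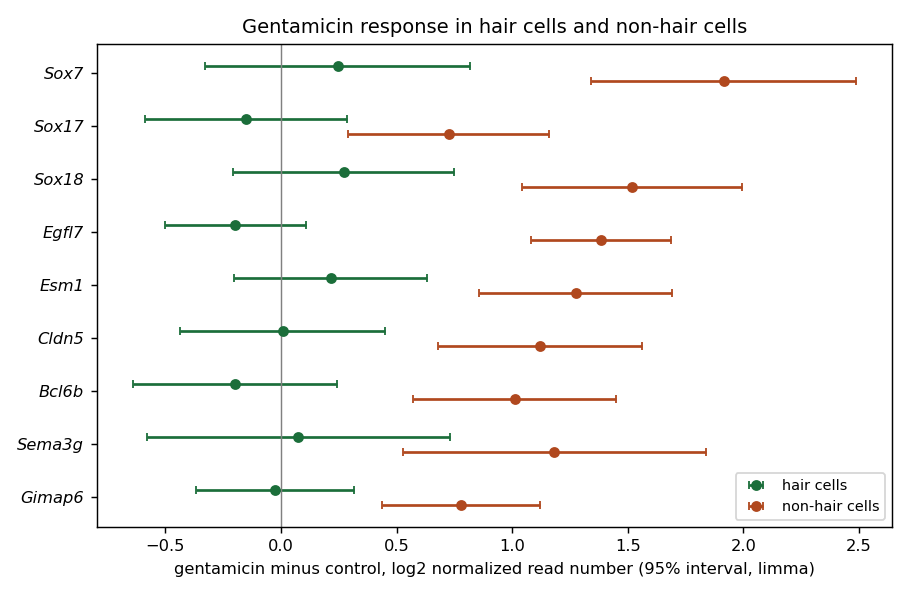
Difference between gentamicin and control for the 9 genes on the log2 scale of the normalized read number, in HC and NHC, with 95% intervals from limma. Points for HC lie between -0.20 and 0.27 with every interval crossing 0, and points for NHC, the contrast that chose the genes, lie between 0.73 and 1.91.

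Without gentamicin, all 9 genes were higher in NHC than in HC by the same criteria, which 37.7% of all genes met in that direction. Control HC and NHC replicates did not overlap for any of the 9, where 44.6% of genes were higher in NHC without overlap. This comparison shares its NHC controls with the contrast that chose the genes. Cldn5 differed most, by 3.50 on the log2 scale (limma adjusted p = 2.87e-08), followed by Bcl6b at 3.10 and Sox18 at 3.04. Gimap6 differed by 2.78, Sox17 by 2.60 and Sox7 by 2.41. Sema3g and Esm1 followed at 1.56 and 1.51 (limma adjusted p = 5.48e-04 and 1.98e-05).

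With the offset removed, control HC held 5.76–11.8% of the NHC level for Sox7, Sox17, Sox18, Esm1, Cldn5, Bcl6b and Gimap6. Sema3g stood at 26.9% and Egfl7 at 72.6%. Egfl7 thus differed little between the sorted populations, by 0.44 with an SE of 0.14 (limma adjusted p = 0.0135). Its reads cannot be assigned with certainty where Gm20532 overlaps it. With the replicate block the unadjusted limma p of Egfl7 was 0.0113, outside the criteria. Scaling by the median of ratios moved the median of all genes by -0.12 in this comparison and left Egfl7 at 0.32, also outside the criteria.

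Levels can be compared between genes only per length, as reads per kilobase of exon for each 1000000 reads on genes. On that scale Cldn5 was highest of the 9 in control NHC, with a mean of 21.4 ± 3.87, followed by Sox18 at 10.4 ± 0.657, Egfl7 at 9.46 ± 1.65 and Bcl6b at 7.68 ± 1.27 (SD, n = 3). Sox7 at 3.57, Gimap6 at 3.02, Sema3g at 1.97, Sox17 at 1.70 and Esm1 at 1.07 made up the lower part. Replicates of neighbouring genes overlapped in this order except between Cldn5 and Sox18, between Bcl6b and Sox7, and between Gimap6 and Sema3g. After gentamicin the order was the same apart from Esm1 at 3.24 and Sox17 at 3.04, which changed places with overlapping replicates, and Cldn5 stood at 48.9, Sox18 at 32.1, Egfl7 at 25.4, Bcl6b at 16.1 and Sox7 at 14.6.

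Sox18 made up most of the SoxF RNA per length in every NHC replicate. Its share of the summed level of the 3 genes was 71.3%, 64.5% and 64.0% in controls and 57.9%, 75.0% and 59.6% after gentamicin, so the groups overlapped. Sox7 took 18.2%, 25.6% and 24.0% in controls and 33.9%, 20.9% and 33.9% after gentamicin, with treated replicate 2 inside the control range. Sox17 took 10.49%, 9.94% and 12.01%, and 8.18%, 4.08% and 6.52% after gentamicin, with every treated share below every control share.

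The 9 genes moved together between replicates of control NHC as well, and in part between those of treated NHC. In control NHC all 9 were lowest in replicate 1 and highest in replicate 3, an order that 23 of the 34 endothelial identity genes shared at its low end and 24 at its high end, against 38.1% and 32.8% of all genes. Replicate 1 is the library with the high hemoglobin level, and whether that has a part in its low values was not tested. After gentamicin 8 of the 9 were highest in replicate 3, all but Sox18, as were 18 of the 34 identity genes and 35.8% of all genes. At the low end 6 of the 9 were lowest in treated replicate 1 and 3 in treated replicate 2, beside 22.5% and 36.8% of all genes. Over the 6 NHC replicates each gene's correlation with the mean of the others lay between 0.871 for Sox17 and 0.994 for Bcl6b, a value that includes the difference between the treatments and describes these libraries only. By the same measure against the mean of the 9, the most alike of 13113 other genes were Atg10, Vars, Ckap4, Tpr, Srd5a3, Eif3a, Tpp2, Polr3e, 6330416G13Rik and Dnajc11, with r between 0.983 and 0.997 over these 6 replicates and NHC log2 differences of 0.15 to 0.27.

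Most other endothelial genes did not meet the criteria in NHC. Of the 34 endothelial identity genes, 4 rose and 0 fell, beside 3.18% higher and 2.26% lower over all genes, with a median log2 difference of 0.22 against -0.005 for all genes, and none had an adjusted p under 0.05 in limma. The 4 were Ramp2, a partner of the adrenomedullin receptor (0.70), Robo4, a guidance receptor (0.69), Myct1 (0.58) and She (0.40). Outside the criteria, Ptprb had a difference of 0.82, above those of Sox17 (0.73) and Gimap6 (0.78). All treated replicates of Ptprb, Tek, Rasip1 and S1pr1 lay above all controls. So did those of the 4 that rose, where 10.1% of all genes were higher without overlap. The difference was above 0 for 27 of the 34, beside 7853 of all 16088 genes. Genes that define endothelium did not meet the criteria: Pecam1 had means of 43.8 in control and 36.2 in treated NHC, Cdh5 58.6 and 67.8, Tie1 24.7 and 33.5, and Tek 16.7 and 22.0. Kdr and Flt1, the VEGF receptors, had 39.4 and 46.5, and 42.8 and 40.9.

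Summed over the 34 genes, the level was 1088, 1126 and 1123 in control NHC and 1160, 1358 and 1262 after gentamicin, so every treated replicate lay above every control. This level moved with the 9 genes, which were therefore also taken as a percentage of the identity sum. That percentage was 11.8, 13.7 and 15.8 in control NHC and 28.1, 26.3 and 36.5 after gentamicin, without overlap. In a fit relative to the identity genes, chosen after the data were seen, the NHC differences were 1.70 for Sox7, 1.31 for Sox18 and 1.17 for Egfl7. They were 1.06 for Esm1, 0.97 for Sema3g, 0.91 for Cldn5, 0.80 for Bcl6b, 0.57 for Gimap6 and 0.51 for Sox17. Sox17 was outside the criteria, which 0.218% of all genes met in the higher direction in this fit. The fit lowers the NHC difference of every gene by the same amount. The NHC contrast chose the genes, so these values are no test of them.

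In HC the same percentage was 16.5, 16.01 and 14.4 in controls and 20.1, 29.5 and 17.5 after gentamicin, with means of 15.6 ± 1.09 and 22.4 ± 6.34 (SD, n = 3). Every treated replicate lay above every control, and the two-sided exact permutation test gave p = 0.1, which is the lowest p this design can reach. Egfl7 made up most of the HC sum, and without it the percentage was 4.48, 5.35 and 4.10 in controls and 5.63, 10.7 and 6.72 after gentamicin, with the same p = 0.1 from the exact permutation test. The denominator fell in HC, from 212–252 to 131–170, while the 9 genes did not meet the criteria. Sox13, an identity gene with a like level in control HC (94.0) and control NHC (97.1), made up much of that denominator and had 67.8 in treated HC. With Sox13 left out, a choice made after the data were seen, the percentage was 28.3, 25.8 and 25.4 in control HC and 38.8, 46.1 and 32.9 after gentamicin, and it was 12.8, 14.9 and 17.4 in control NHC and 30.8, 27.98 and 40.2 after gentamicin.

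**Figure D3:**
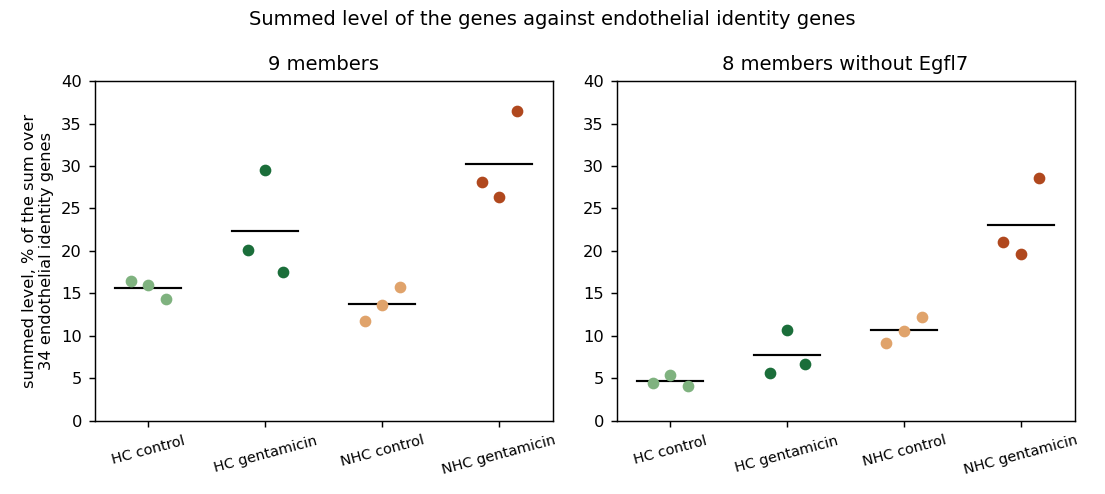
Summed level of the 9 genes (left) and of the 8 without Egfl7 (right) in each replicate as a percentage of the summed level of 34 endothelial identity genes, with group means as lines. NHC rose from 11.8–15.8% to 26.3–36.5% for the 9 genes, and in HC all treated replicates lay above the controls at 17.5–29.5% against 14.4–16.5%.

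In the VEGF group 1 of 19 genes tested rose in NHC, Pgf (0.39), the placental growth factor, and 0 fell. Of 20 genes of endothelial Notch signalling and arteriovenous identity 1 rose, Dll4, a Notch ligand of tip cells and arteries, from a mean of 33.0 to 63.5, a difference of 0.94. The 2 that fell were Nrarp (-0.70), a Notch target that dampens the pathway, and Dll1 (-0.64), another Notch ligand. Dll4 had 133 in control HC and 251 in treated HC, above its NHC level, so its RNA was not limited to endothelium in these samples. The 7 genes of the flow and Klf group gave 0 in either direction.

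Barrier genes gave 2 of 17 higher, Abcb1a (0.62), the P-glycoprotein efflux pump, and Tjp1 (0.33), a tight junction scaffold found in most epithelia. Among relatives of the 9 genes few met the criteria. Of 14 other Sox factors 0 met the criteria, of 5 other Gimap genes Gimap5 rose (0.42), and of 15 other claudins Cldn11 rose (0.53), the claudin of strial basal cells. Of 13 other class 3 semaphorins and their receptors 0 met the criteria, and neither did Bcl6 nor Egfl8.

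Markers of other cell types in the NHC fraction were read beside these values. Mural cells gave 1 higher of 14 (Acta2, 0.68), with a summed level of 989–1103 in controls and 881–1025 after gentamicin. Lymphatic endothelial markers gave 1 lower of 5 (Ccl21a, -0.79) with a summed level of 97.4–140 and 95.5–126. Ccl21a had means of 1.88 and 1.07 in control and treated NHC, close to the offset of 1, and 63.55 in control HC. The list summed to 114–133 in control HC, so its level was not limited to the NHC fraction. Macrophage and leukocyte markers gave 0 of 13, with 59.2–107 and 70.0–97.8. Supporting cell, Schwann cell and hair cell markers gave 0 of 13, 0 of 8 and 0 of 9. The summed levels of mural, lymphatic and leukocyte genes overlapped between control and treated NHC.

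In HC, where the 9 genes did not meet the criteria, the endothelial identity genes that met them were lower. Of the 34 identity genes 0 rose and 6 fell, beside 12.7% higher and 14.8% lower over all genes, with a median of -0.43. Ets1, an ETS factor of endothelium and other tissues, fell by 1.28, and the adhesion G protein-coupled receptor Gpr116 fell by 1.13. Cdh5, the endothelial cadherin, fell by 0.87 and She by 0.57. The identity genes called in HC numbered 3 without HC control replicate 2, and 3–8 when any 1 replicate was left out.

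Pericyte genes fell in HC as well, 6 of 14 mural genes, among them Cspg4 (-1.40) and Pdgfrb (-1.38). Schwann cell genes fell for 4 of 8, with Foxd3 at -1.40 and Pmp22 at -1.16, and supporting cell genes for 3 of 13, with Hes5 at -2.02. The Schwann cell genes called numbered 1 without HC gentamicin replicate 2 or without HC control replicate 2, and 2 without HC control replicate 3, and the supporting cell genes called numbered 1 without HC gentamicin replicate 2 or HC control replicate 3. The mural, Schwann cell and supporting cell genes that met the criteria in the HC sort were lower, beside 14.8% lower over all genes. Not every list fell: of 13 macrophage and leukocyte markers 0 fell and 1 rose (Cd68, 2.52). Lymphatic and red blood cell genes gave 0 of 5 each, with medians of -0.49 and 0.15. The part of these cell types in the HC values of the 9 genes was not tested. Among the other Notch and VEGF genes 8 of 20 and 4 of 19 fell, such as Nrarp (-1.45), Hes1 (-1.34) and Pdgfb (-1.19), while Dll4 (0.90) and Pgf (0.44) rose.

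Relatives of the 9 genes met the criteria in both directions in HC. Of 14 other Sox factors 5 fell and 0 rose, including Sox9 (-1.04), a factor of supporting cells, and Sox10 (-0.84). Of the semaphorin group 5 of 13 fell, with Sema3f at -1.12 and Plxnd1 at -0.71. Cldn15, a claudin of epithelia, rose from a mean of 1.54 to 9.81, a difference of 2.64, and Bcl6, the closest relative of Bcl6b, rose by 1.01. Among barrier genes Mfsd2a, a lipid transporter of barrier endothelium, fell by 1.201 and Itm2a by 0.87, of 3 of 17 that fell and 1 that rose.

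**Figure D4:**
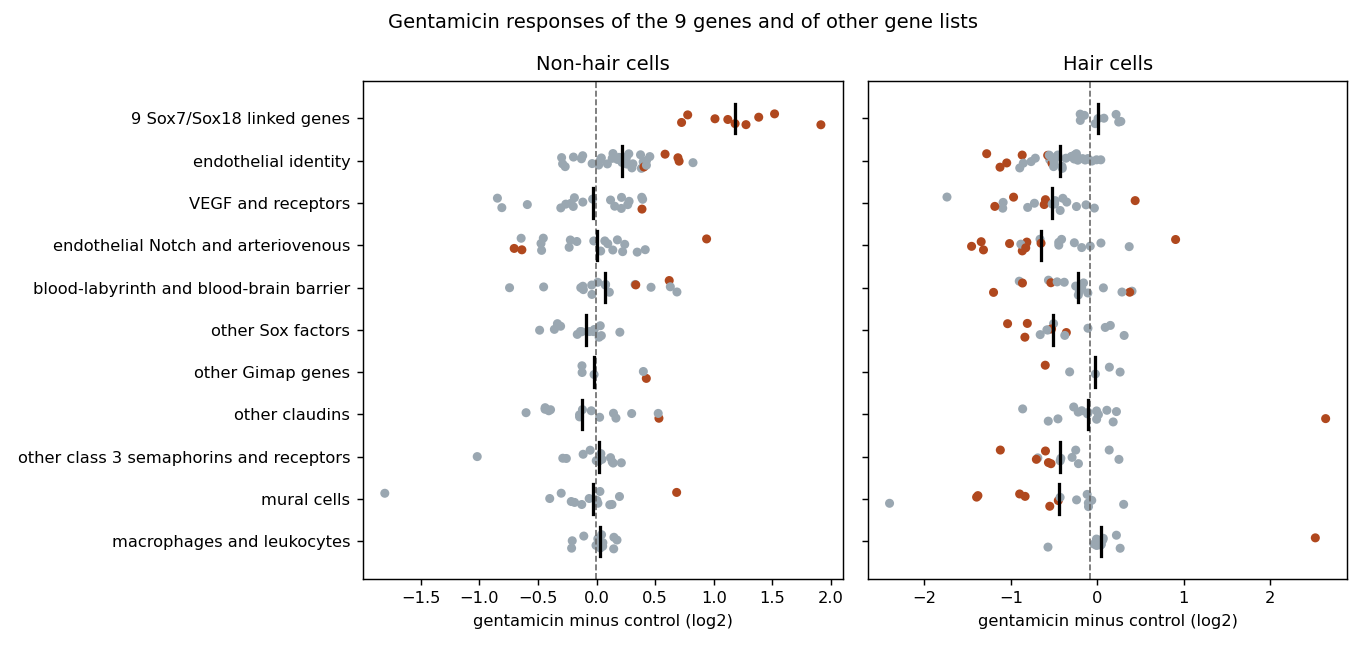
Difference between gentamicin and control (log2 normalized read number) for each tested gene of the lists, in NHC and in HC, with list medians marked. The endothelial identity list has a median of 0.22 in NHC and -0.43 in HC, and the 9 genes, chosen on the NHC contrast, 1.18 and 0.01.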

How the data were processed

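The authors trimmed single-end 50 bp reads of poly(A) RNA and aligned them to mm10 with TopHat 2 in PartekFlow. For 23420 genes and 12 replicates the authors deposited a score, the normalized read number used here. RPKM is named in the methods, yet these deposited values were not divided by gene length: with the offset of 1 removed, 77.4–78.7% of low values were whole reads within 0.02 reads. How the authors set the scaling is not given in the sources used here. Reads on genes numbered 22400662–28152252 per replicate, and Esm1 and other genes of few reads were measured with little precision. The planned limma fit suited this unit.

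Genes with at least 100 reads in all (16088) were fitted on log2 of the score with limma 3.58.1 in R 4.3.3, as 4 groups in 1 model with a trend. A fold change is on the log2(value + 1) scale and understates changes of low genes. A gene was called, rose or fell where the unadjusted p was under 0.01 and the fold change above 1.2, the criteria of the study. Benjamini-Hochberg adjusted p-values cover all genes tested. Tables were handled in Python 3.11.15 with pandas 2.3.3 and numpy 2.4.6, the exact permutation test came from scipy 1.17.1, and the fitting was tested on simulated data. Positions and exon lengths came from GENCODE M21 (GRCm38). The paper calls the replicates biological. Limma p-values set the difference between group means against the spread between replicates, pooled over the 4 groups and moderated across genes.

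Members and lists were chosen with earlier results of these data known. From each other list, up to 4 genes called in NHC and 2 in HC were named by largest log2 difference, with 6 defining endothelial genes, 3 hair cell genes and the 10 genes most like the members, and others named here were picked after their values were seen. Alternatives were other scalings, offsets, filters and thresholds, 2 groups alone, a replicate block and leaving out each replicate. Replicate numbers paired the control populations, as deviations of same-numbered replicates correlated at 0.216, 0.316 and 0.200.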

Additional observations from a re-analysis of the deposited data

Results flagged for a closer look

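Among the genes named from the lists, 13 had a response to gentamicin that differed between NHC and HC by the interaction term in limma at an adjusted p under 0.05. The 9 genes themselves are left out because the NHC contrast chose them, so that their interaction is no test. The 13 genes were likewise named because they met the criteria in NHC or HC, which are the arms of this term. Their adjusted p-values are therefore a description and no independent test, and the share of all genes with such a difference is not given here. A positive value means a higher log2 difference in NHC than in HC.

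Endothelial and barrier genes were among those with positive values: She (0.98, limma adjusted p = 0.00774), Ets1 (1.16, limma adjusted p = 0.0342), Myct1 (0.69, limma adjusted p = 0.0262), Mfsd2a (1.21, limma adjusted p = 0.0295) and Itm2a (0.73, limma adjusted p = 0.0203). Ets1, Mfsd2a and Itm2a fell in HC and did not meet the criteria in NHC, Myct1 rose in NHC, and She fell in HC and rose in NHC. Cxcr4, a chemokine receptor (1.25, limma adjusted p = 0.0169), Sema3f (0.83, 0.0382), the semaphorin receptor Plxnd1 (0.70, 0.0291), Gimap1 (0.58, 0.0429) and the pericyte receptor Pdgfrb (1.51, 0.0275) had positive values as well. The negative values were those of Cldn15 (-2.47, limma adjusted p = 8.85e-04), Cd68, a lysosomal protein abundant in macrophages (-2.73, limma adjusted p = 8.85e-04), and Bcl6 (-1.22, limma adjusted p = 0.0278), all of which rose in HC.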

How the results depend on the processing

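All 9 genes stayed above 0 in NHC under every alternative run. Relative to the endothelial identity genes, a setting chosen after the data were seen, the HC difference of every gene moved up by the same amount. In that setting 3 of 9 (Sox7, Sox18 and Esm1) were called in HC with a median of 0.48, where 34.9% of all genes were called higher. By that shift Sox17 (0.32), Egfl7 (0.27), Bcl6b (0.27) and Gimap6 (0.44) turned positive. Scaling by total reads also turned Gimap6 to 0.013. The genes called in HC numbered 4418, or 2074 at a fold above 1.5, and 3288–4133 when a replicate was left out. In NHC they numbered 876, or 383 with the 2 groups alone, 219 at a fold above 1.5 and 55 at an adjusted p under 0.05, and 411–1571 when a replicate was left out. Of the 9 genes 5 were called in NHC at an adjusted p under 0.05, and 7–9 when a replicate was left out. Sox17 lost its call without NHC gentamicin replicate 1 or 3 or NHC control replicate 1 or 2, with an offset of 0.1, with 2 groups alone, and relative to the identity genes. Leaving out a replicate moved HC values of Gimap6 over -0.14 to 0.051, Cldn5 over -0.12 to 0.10 and Sema3g over -0.17 to 0.29. Between control populations the median was 2.60, 3.52 with an offset of 0.1 and 2.47–2.70 when a replicate was left out, and Egfl7 lost its call at a fold above 1.5, with no minimum of reads, with 2 groups alone and without any 1 control replicate other than NHC control replicate 1. Endothelial identity genes called in NHC numbered 0–4 over the alternatives. Same-numbered replicates did not pair the gentamicin contrasts (correlations of deviations 0.0367, 0.0522 and 0.0369 in HC, 0.208, -0.232 and 0.683 in NHC). With the replicate block 878 genes were called in NHC and 4620 in HC, and of the 9 genes 9 and 0, as without it. The cause was not tested. Depth limits Esm1 and the SoxF genes in HC, which had few reads.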
